A study of Homo sapiens with 3 samples.

Results

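The clustered protocadherins are 53 genes in 3 neighbouring subclusters on the long arm of human chromosome 5, with 15 alpha genes (PCDHA1 to PCDHA13, PCDHAC1 and PCDHAC2), 16 beta genes (PCDHB1 to PCDHB16) and 22 gamma genes (PCDHGA1 to PCDHGA12, PCDHGB1 to PCDHGB7 and PCDHGC3 to PCDHGC5). They were taken by name from the 20163 protein-coding genes of the GENCODE annotation of GRCh37 (hg19), and all 53 were found. A binding peak was assigned to the clusters when it lay inside the body of a member or within 5 kb of one of its annotated starts. By this rule the clusters held 11 of the 21639 EZH2 peaks and 6 of the 19039 PHF13 peaks. A member was counted as having a peak only through its own starts, because the alpha and gamma gene bodies overlap and a single peak can lie inside up to 19 of them.

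Binding was mapped by ChIP-seq, the sequencing of immunoprecipitated chromatin, in PANC-1, an established line of human pancreatic ductal carcinoma cells, with the genotype given as wildtype and no treatment listed. The study had 1 library with an antibody against PHF13, 1 with an antibody against EZH2 and 1 of input chromatin, and all were crosslinked with EGS, paraformaldehyde and formaldehyde. The PHF13 antibody was a rabbit polyclonal made for the study. With 1 library per antibody no difference has a replicate check, and all intervals given are exact Poisson 95% intervals that cover counting error only.

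Clustered protocadherins are cell-surface proteins of the cadherin family that bind their own kind between cells, and in neurons the set that each cell makes gives it a surface identity. Each alpha and gamma gene has a large variable exon with its own promoter, spliced to constant exons shared by its subcluster, whereas a beta gene codes its whole protein in essentially 1 exon. Most of these promoters carry a short conserved sequence element with the core letters CGCT, and promoter choice is known to depend on DNA methylation and on looping by CTCF and cohesin. EZH2 is the methyltransferase of Polycomb repressive complex 2 (PRC2), which places repressive methyl groups on lysine 27 of histone H3. PHF13 is a PHD-finger protein that reads methylated lysine 4 of the same histone. The 2 peak lists hold no measure of transcription, so whether any member is expressed in PANC-1 cells was not measured here.

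Several of the genes are near copies of each other, and 8 of the 17 peaks of the clusters lay in sequence that recurs in the genome, where a short read may match more than 1 place. In the 100 bases before the start, 47 of the 53 members had the letters CGCT on the coding strand, against 35.9% of protein-coding genes. The CGCT nearest the start lay at a median of 48 bases before it, and some members had more than 1. These letters alone do not define the conserved element, and longer matches to it were not searched. The windows of 1 member from each subcluster, all on the plus strand of GRCh37, are shown with CGCT in capitals: PCDHA2 (chr5:140174337-140174436), PCDHB1 (chr5:140430859-140430958) and PCDHGA1 (chr5:140709981-140710080).
PCDHA2: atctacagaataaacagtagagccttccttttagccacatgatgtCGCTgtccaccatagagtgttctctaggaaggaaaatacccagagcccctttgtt
PCDHB1: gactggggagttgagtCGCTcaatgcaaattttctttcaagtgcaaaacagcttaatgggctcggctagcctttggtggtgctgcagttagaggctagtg
PCDHGA1: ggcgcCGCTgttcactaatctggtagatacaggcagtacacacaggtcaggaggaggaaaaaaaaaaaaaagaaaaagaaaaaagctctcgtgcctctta
Most beta windows hold ggtggCGCT, and that of PCDHB1 does not. For each of the 47 members, the CGCT nearest the start was compared with the peaks. None of these 47 sites lay under an EZH2 peak, and none lay under a PHF13 peak. Further CGCT copies in the same windows were not checked. The peaks covered only 1995 bp (EZH2) and 1409 bp (PHF13) of the 727 kb of the clusters. The share of such sites under a peak was not counted over all genes. PCDHB8, the gene with the most peaks, was among the 6 members without CGCT in this window, with PCDHA7, PCDHA9, PCDHB6, PCDHGA12 and PCDHGC5. The window depends on the annotated start, and that of PCDHA7 is its first coding base. The PCDHB8 window ends in letters that, nearly identical in PCDHB13, lie there just before CGCT. Bases after the start were not searched.

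Most members had no peak of either protein. EZH2 peaks were within 5 kb of a start of 11 of the 53 members (20.8%), against 23.6% of all protein-coding genes. PHF13 peaks were within this distance of 7 members (13.2%), against 21.0% of all protein-coding genes. PCDHB8 and PCDHB16 had both, against 5.33% of protein-coding genes, and 37 members had neither. The share for EZH2 was near the background and the share for PHF13 was below it, with no test possible from 1 library.

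The 3 subclusters differed in these counts, with the beta genes highest for both proteins at the 5 kb limit. For EZH2 the count was 6 of 16 beta genes (37.5%), 4 of 22 gamma genes (18.2%) and 1 of 15 alpha genes (6.67%). The beta genes were PCDHB1, PCDHB7, PCDHB8, PCDHB11, PCDHB13 and PCDHB16, the gamma genes PCDHGA9, PCDHGA12, PCDHGB5 and PCDHGC3, and the alpha gene PCDHA1. For PHF13 the count was 4 of 16 beta genes (25.0%; PCDHB8, PCDHB14, PCDHB15 and PCDHB16), 2 of 22 gamma genes (PCDHGA11 and PCDHGB7) and 1 of 15 alpha genes (PCDHA10). This order for PHF13 did not hold in other settings. Within 1 kb of a start each subcluster had 1 member. The alpha one, PCDHA10, was called through an annotated start 49 bp from its peak that was not the canonical start. At a −log10 q of at least 3 the counts were 0 alpha, 2 beta and 2 gamma. On single-copy peaks they were 1 alpha, 0 beta and 2 gamma. Starts of the beta and gamma genes lie close together, and some genes were counted through a neighbour's peak. When each peak was given only to the member with the nearest start, EZH2 was left with 8 members and PHF13 with 5, and PCDHB7, PCDHB16, PCDHGA9 and PCDHGB7 lost their calls. Among the classes of variable exon, 1 of the 5 C-type genes had an EZH2 peak (PCDHGC3) and none had a PHF13 peak. The gamma A genes had 2 of 12 for EZH2 and 1 of 12 for PHF13, and the gamma B genes 1 of 7 for each.

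**Figure D1:**
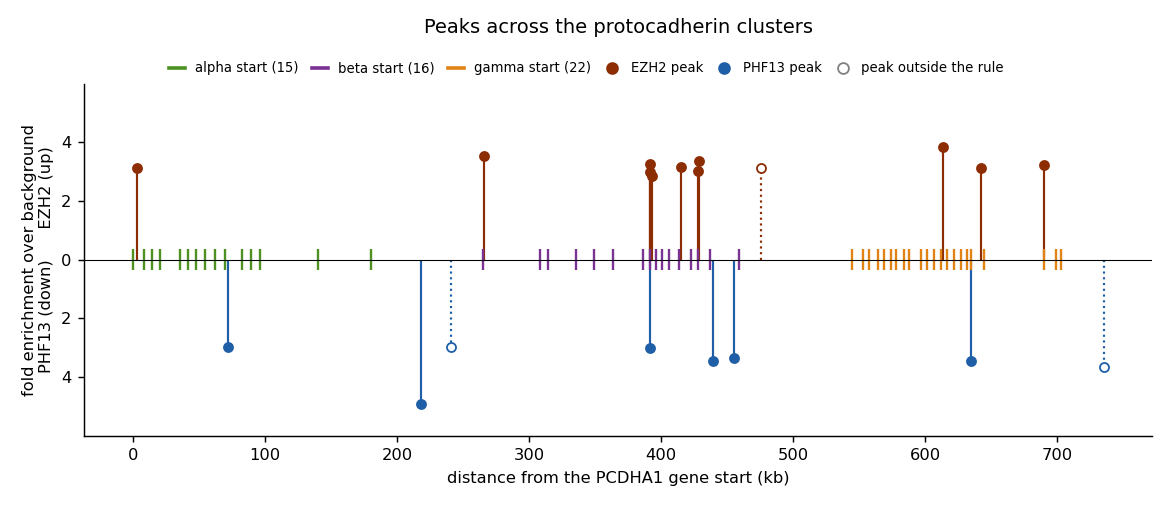
Fold enrichment of each peak (vertical axis, EZH2 upward and PHF13 downward) against distance from the PCDHA1 gene start in kb; coloured ticks are the canonical starts of the 53 members and open points are peaks outside the rule. The beta subcluster holds 7 of the 11 EZH2 peaks and 3 of the 6 PHF13 peaks, and these 3 all lie in recurring sequence. The alpha genes after PCDHA1 lie in a stretch of 262 kb with no EZH2 peak.

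Counted by length rather than by gene, the order for EZH2 was the same. The alpha, beta and gamma subclusters spanned 226, 198 and 182 kb. EZH2 peaks numbered 7 in the beta subcluster, which is 3.54 per 100 kb (interval 1.42 to 7.29), 3 in the gamma subcluster, 1.64 per 100 kb (0.339 to 4.8), and 1 in the alpha subcluster, 0.442 per 100 kb (0.0112 to 2.46). The whole of chromosome 5 had 0.72 and the genome 0.699 per 100 kb. PHF13 peaks numbered 3 in the beta subcluster (1.52 per 100 kb), 2 in the alpha subcluster (0.884) and 1 in the gamma subcluster (0.548), against 0.783 on chromosome 5. The intervals of the 3 subclusters overlapped for both proteins. No test compared the counts, so no order of the subclusters is established. For EZH2 the beta interval lay above the value of chromosome 5, and those of alpha and gamma included it. Of the 7 beta peaks 4 lay in recurring sequence, and such peaks may not be independent. The longest stretch without an EZH2 peak ran for 262 kb from the first intron of PCDHA1 to the coding exon of PCDHB1 and held 15 member starts. The next longest that held member starts and ended within the clusters ran for 137 kb over 13 gamma starts, from PCDHGA1 to PCDHGB5. The longest without a PHF13 peak ran for 179 kb and held 18 starts, from PCDHB15 to PCDHGB7.

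EZH2 peaks of the clusters were short. Their widths ran from 150 to 242 bp with a median of 184 bp, against a median of 216 bp over the whole EZH2 list, which held 1659 peaks of more than 1 kb. The HOX genes, developmental regulators that are textbook PRC2 targets, had an EZH2 peak at 14 of 39 (35.9%), with a median width of 365 bp and 3 peaks over 1 kb, the widest 1556 bp. Of 12 protocadherin genes outside the clusters 6 had an EZH2 peak, at PCDH1, PCDH7, PCDH8, PCDH11X, PCDH19 and PCDH20, and the widest of their peaks was 2355 bp. Fold enrichment, the ratio of fragments at the peak's highest point to those expected from the local background with 1 added to both, had a median of 3.18 over the 11 cluster peaks, against 3.13 over the list. The medians were 3.14 in alpha (1 peak), 3.18 in beta and 3.24 in gamma, and did not differ beyond the counting error of a single peak.

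PCDHB8 held 4 of the 17 cluster peaks, and the only place where peaks of the 2 proteins overlapped. An EZH2 peak at chr5:140557493-140557642 and a PHF13 peak at chr5:140557496-140557654 shared 147 bp, with summits 14 bp apart, across the end of the 5′ untranslated region and the first codons of the gene. The EZH2 peak had 34 fragments at its summit (23.5 to 47.5), an enrichment of 3.25-fold at a −log10 q of 6.21, the highest −log10 q among the EZH2 peaks of the clusters. The PHF13 peak had 24 fragments (15.4 to 35.7), an enrichment of 3.0-fold at a −log10 q of 3.24. The local background under the EZH2 peak was 9.78 fragments, against a floor of 4.42 over the list, and under the PHF13 peak it was 7.33 against a floor of 4.23. A local background above the floor thus went with both peaks, and its part in the overlap was not tested. The coding part of the overlap, chr5:140557616-140557642 on the plus strand, opens with the start codon.
PCDHB8 overlap: atggaggccagcgggaagctcatttgc
A further EZH2 peak lay 64 bp upstream of PCDHB8 (chr5:140557097-140557307), with 31 fragments (21.1 to 44), a fold enrichment of 2.98 and a local background of 9.75. The fourth peak, again EZH2, lay inside the coding sequence at chr5:140559068-140559217, with 30 fragments (20.2 to 42.8), a fold enrichment of 2.85 and a local background of 9.87.

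Much of the sequence under the PCDHB8 peaks was not particular to PCDHB8. Of the 127 stretches of 24 bases (24-mers) in the overlapping EZH2 peak, 80 occurred again in PCDHB13, and of the 136 in the PHF13 peak, 89 did. The matching part of PCDHB13 (chr5:140593572-140593722) carried no EZH2 peak, and the nearest one began 116 bp further on. The upstream peak was mostly distinct, with 177 of its 188 24-mers found once in the genome, although its sequence was 91.9% identical to the corresponding part of PCDHB13. PCDHB8 had the lowest share of single-copy 24-mers over its exon of the 53 members, 38.0%, against a median of 77.1%. Around the starts, PCDHB13 (41.8%) and PCDHB8 (43.4%) were the lowest of all members.

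PCDHB13, the near copy of PCDHB8, had 2 EZH2 peaks inside its coding exon and no PHF13 peak. The first, at chr5:140593838-140594058, had 19 fragments (11.4 to 29.7), an enrichment of 3.03-fold at a −log10 q of 2.83. All of its 198 24-mers occurred again in PCDHB8, at chr5:140557758-140557978, where no EZH2 peak was listed. The sequence below is therefore that of both genes, and a read wholly within it cannot be assigned to either. It is shown on the plus strand with CG in capitals.
PCDHB13: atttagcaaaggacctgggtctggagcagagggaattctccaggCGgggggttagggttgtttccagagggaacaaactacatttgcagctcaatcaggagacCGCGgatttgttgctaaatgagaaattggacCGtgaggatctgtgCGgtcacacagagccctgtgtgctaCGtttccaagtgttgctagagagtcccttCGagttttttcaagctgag
The second, at chr5:140594243-140594429, had 21 fragments (13.0 to 32.1) and a fold enrichment of 3.38. Its sequence was 97.3% identical to PCDHB8, and 42 of its 164 24-mers occurred once in the genome.

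A set of 4 peaks from 4 beta sequences fell on the same part of the gene. The EZH2 peak in the coding exon of PCDHB8 began 1452 bases after the first base of the start codon, and the EZH2 peak of PCDHB11 (chr5:140580838-140581035) began 1490 bases after it. The PHF13 peak of PCDHB14 (chr5:140604664-140604863) began 1586 bases after it. The fourth was a PHF13 peak in the pseudogene PCDHB19P (chr5:140620986-140621129), 3834 bp from the nearest start of PCDHB15, and its sequence matched PCDHB8 from base 1504 to base 1647. These positions stand on a stretch that the beta genes share: from base 1452 to base 1785, 28.2% of the 24-mers of the 15 beta genes annotated there occurred once in the genome, against 66.8% in the rest of the coding sequence. The stretch was chosen after the peaks were seen. Its limits are the outer edges of the peaks of PCDHB8, PCDHB11 and PCDHB14, which lie in recurring sequence, so a low share was partly built in. In most beta genes low shares also extended beyond it on both sides, as in PCDHB2, with 0% in the bins at bases 1300 and 2250. PCDHB1 was the exception, with every 24-mer single-copy in the stretch.

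The 3 peaks at PCDHB8, PCDHB11 and PCDHB19P contained an identical run of 75 bases, shown in capitals, and the PCDHB14 peak contained a run of 68 bases that is also in the PCDHB11 peak, shown in capitals in its own line. All are on the plus strand at the coordinates given above, and they are shown because peaks of both proteins rest on them.
PCDHB8 (EZH2): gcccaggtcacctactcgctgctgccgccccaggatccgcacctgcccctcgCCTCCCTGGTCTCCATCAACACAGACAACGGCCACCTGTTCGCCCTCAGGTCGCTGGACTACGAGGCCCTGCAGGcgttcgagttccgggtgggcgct
PCDHB11 (EZH2): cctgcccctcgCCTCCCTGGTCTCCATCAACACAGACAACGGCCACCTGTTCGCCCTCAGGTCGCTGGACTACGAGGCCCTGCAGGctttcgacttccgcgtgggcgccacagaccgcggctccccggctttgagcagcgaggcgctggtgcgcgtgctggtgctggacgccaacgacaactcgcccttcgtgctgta
PCDHB19P (PHF13): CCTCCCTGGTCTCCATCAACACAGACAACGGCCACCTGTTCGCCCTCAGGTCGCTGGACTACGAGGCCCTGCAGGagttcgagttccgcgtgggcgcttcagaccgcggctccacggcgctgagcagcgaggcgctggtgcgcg
PCDHB14 (PHF13): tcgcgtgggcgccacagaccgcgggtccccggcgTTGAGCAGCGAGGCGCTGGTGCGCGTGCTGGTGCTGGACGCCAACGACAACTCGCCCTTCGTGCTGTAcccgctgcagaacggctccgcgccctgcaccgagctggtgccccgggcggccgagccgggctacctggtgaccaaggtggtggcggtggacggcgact
The PCDHB11 peak had 18 fragments at its summit (10.7 to 28.4) and a fold enrichment of 3.18, and 8 of its 175 24-mers were single-copy. The PCDHB14 peak had 17 fragments (9.9 to 27.2) and a fold enrichment of 3.44, and its median 24-mer occurred 13 times in the genome. The PCDHB19P peak also had 17 fragments, with a fold enrichment of 3.37 and a median of 4 copies. The PCDHB8 peak in this stretch matched PCDHB4 at 97.3% identity, and the matching part of PCDHB4 had no peak.

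**Figure D2:**
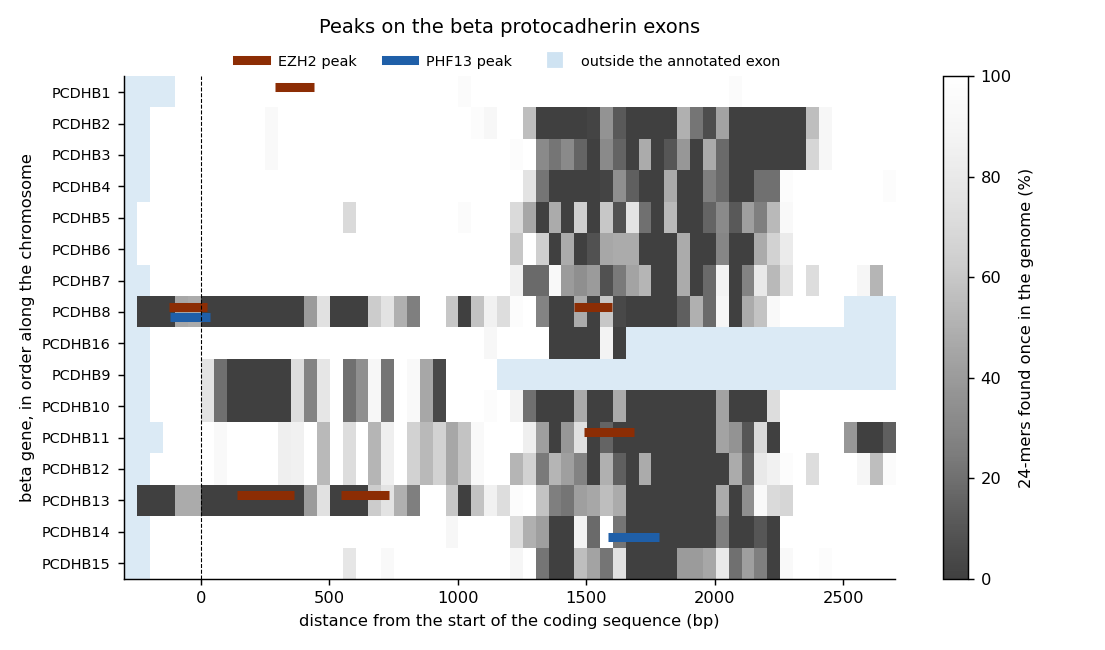
Peaks on the 16 beta exons, aligned at the start of the coding sequence (horizontal axis, bp); grey shading is the percent of 24-mers in each bin of 50 bases that occur once in the genome, from dark grey (0%) to white (100%), and blue is outside the annotated exon. The peaks of PCDHB8, PCDHB11 and PCDHB14 between bases 1452 and 1785 lie over a dark band shared by nearly all beta genes.

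The remaining beta peak was the most distinct one. PCDHB1, the first beta gene along the chromosome, had an EZH2 peak in its coding exon at chr5:140431347-140431496, 388 bp from the nearest start. It had 26 fragments (17.0 to 38.1), an enrichment of 3.54-fold at a −log10 q of 5.42, and all of its 127 24-mers occurred once in the genome. It was 1 of the 2 EZH2 peaks of the clusters with a −log10 q of at least 5, the other being the peak in the overlap at PCDHB8.

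The gamma peaks were in single-copy sequence throughout. The EZH2 peak with the highest fold enrichment of the clusters, 3.84, lay in the coding exon of PCDHGB5 (chr5:140779023-140779174), with 20 fragments (12.2 to 30.9). The EZH2 peak before PCDHGA12 (chr5:140807842-140808025) lay 2049 bp upstream of that gene, in the pseudogene PCDHGB8P, with 17 fragments and a fold enrichment of 3.11. The other 2 gamma peaks were the ones close to a promoter. An EZH2 peak lay 106 bp upstream of PCDHGC3, a C-type gene, at chr5:140855167-140855408, with 25 fragments (16.2 to 36.9), a fold enrichment of 3.24 and a local background of 7.04. A PHF13 peak lay 84 bp upstream of PCDHGA11, at chr5:140800250-140800530, with 18 fragments (10.7 to 28.4) and a fold enrichment of 3.44. Both are printed on the plus strand, with CG in capitals, as the start-proximal peaks of the gamma subcluster whose reads can be placed.
PCDHGA11: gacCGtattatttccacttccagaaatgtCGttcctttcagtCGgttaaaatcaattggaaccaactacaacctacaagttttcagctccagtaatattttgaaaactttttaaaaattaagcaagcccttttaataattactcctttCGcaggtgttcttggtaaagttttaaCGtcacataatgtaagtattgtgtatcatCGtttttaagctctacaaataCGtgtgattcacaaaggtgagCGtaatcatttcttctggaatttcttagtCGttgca
PCDHGC3: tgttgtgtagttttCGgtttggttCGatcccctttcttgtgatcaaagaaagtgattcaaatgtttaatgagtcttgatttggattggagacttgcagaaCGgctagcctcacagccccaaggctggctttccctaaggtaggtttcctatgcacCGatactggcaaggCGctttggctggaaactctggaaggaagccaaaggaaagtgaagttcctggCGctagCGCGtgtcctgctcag

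The alpha subcluster had 3 peaks, and the only strong one lay in an intron away from the variable exons. This PHF13 peak, at chr5:140383605-140384044, lay inside the gene bodies of all 15 alpha genes and 15107 bp from the start of PCDHAC2, the last of them, so it was counted for no member. It had 34 fragments (23.5 to 47.5), an enrichment of 4.93-fold at a −log10 q of 11.04, and its fold enrichment exceeded that of 92.5% of all PHF13 peaks. All of its 417 24-mers were single-copy, and it was the widest of the 17 peaks at 440 bp. It held the letters TGAGTCA, the site of AP-1 transcription factors, 68 bases from its summit, which is in capitals in the 300 bases around the summit (chr5:140383626-140383925, plus strand).
PCDHAC2 intron: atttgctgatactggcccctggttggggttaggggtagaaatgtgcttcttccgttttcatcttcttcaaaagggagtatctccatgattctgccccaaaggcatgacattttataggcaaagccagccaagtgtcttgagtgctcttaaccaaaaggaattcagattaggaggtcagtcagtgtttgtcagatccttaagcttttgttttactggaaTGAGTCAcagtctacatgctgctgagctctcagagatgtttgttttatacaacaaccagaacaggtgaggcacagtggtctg
TGAGTCA or its reverse complement TGACTCA was found in the 200 bp around 11.2% of all PHF13 summits and 2.31% of all EZH2 summits. It was not found around the summits of the other 5 PHF13 peaks or of the 11 EZH2 peaks of the clusters. The second alpha peak, PHF13 at the end of the variable exon of PCDHA10 (chr5:140237850-140238034), was weak, with 15 fragments (8.4 to 24.7) and a −log10 q of 1.98. The third, EZH2 in the first intron of PCDHA1 (chr5:140168843-140168992), had 16 fragments (9.15 to 26.0), and its median 24-mer occurred 81 times in the genome. No EZH2 peak of the alpha subcluster therefore stood on single-copy sequence.

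**Figure D3:**
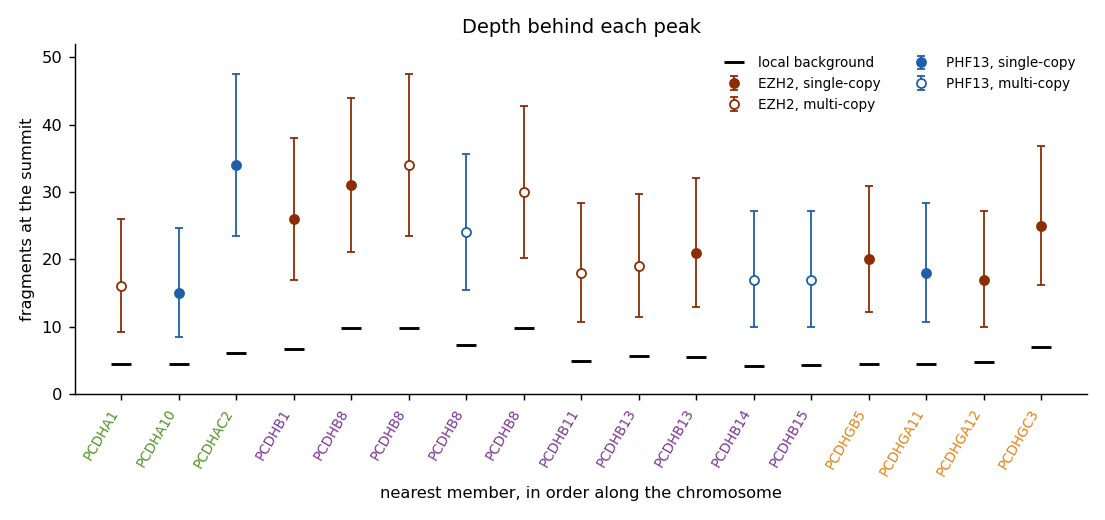
Fragments at the summit of each of the 17 peaks (points) with exact Poisson 95% intervals (bars, counting error only) and the local background (black dashes); open points are peaks whose median 24-mer around the summit occurs more than once in the genome. The counts run from 15 to 34, and local backgrounds are highest at PCDHB8.

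A peak was classed as single-copy when the median 24-mer in the 100 bases around its summit occurred once in the genome, a rule that the second PCDHB13 peak met although most of its 24-mers recur. Over both lists, 6 of the 11 EZH2 peaks stood on single-copy sequence, 3 in the beta and 3 in the gamma subcluster, and 3 of the 6 PHF13 peaks did, 2 in alpha and 1 in gamma. On these peaks alone the EZH2 densities were 1.52 per 100 kb in beta (0.313 to 4.43) and 1.64 in gamma (0.339 to 4.8). The other 4 EZH2 peaks of the beta subcluster were multi-copy. The lengths were not reduced to single-copy sequence, so the lower beta density follows from leaving these peaks out. Whether binding differed between the subclusters was not tested. Counted by gene, single-copy EZH2 peaks were within 5 kb of a start of 5 of the 16 beta and 4 of the 22 gamma genes. The peak upstream of PCDHB8 alone supplied 3 of these beta genes, PCDHB7, PCDHB8 and PCDHB16. All 3 PHF13 peaks of the beta subcluster were multi-copy. The share of unique sequence was not lowest in the beta genes as a group: the median over exons was 73.1% for alpha, 73.7% for beta and 81.6% for gamma.

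Some peaks lay inside coding sequence rather than at a start. The summit was in a coding exon for 6 of the 11 EZH2 peaks and 2 of the 6 PHF13 peaks. Among these, the peaks of PCDHB8, PCDHB11 and PCDHB14 and the first of PCDHB13 were multi-copy. The share of summits in coding exons was not counted over the whole lists. Within 1 kb of a start, EZH2 peaks were found at 4 of the 53 members, against 16.6% of protein-coding genes, and PHF13 peaks at 3, against 13.6%. At the 5 kb limit, the nearest case inside was PCDHB7 for EZH2 at 4872 bp, and the nearest outside were PCDHA2 at 5445 bp and PCDHB12 at 5547 bp. For PHF13 the corresponding genes were PCDHB16 at 4308 bp and PCDHB7 at 5271 bp.

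The starts of the members were lower in CpG than those of most genes. The observed over expected CpG ratio in the 500 bases centred on the start had a median of 0.642 over the members and 0.774 over protein-coding genes, and it reached 0.6 in 29 of the 53 members against 67.9% of protein-coding genes. Of these 29 members 3 had an EZH2 peak (10.3%; PCDHB1, PCDHGB5 and PCDHGC3), against 25.0% of protein-coding genes with such a ratio. Of the 24 members with a lower ratio 8 had an EZH2 peak (33.3%), against 20.6% of protein-coding genes. By this count the members were below the background in the first group and above it in the second. PCDHB7, PCDHB16 and PCDHGA9, all with a lower ratio, were counted through a neighbour's peak. With each peak given only to the nearest member, 5 of the 24 and 3 of the 29 kept an EZH2 peak, and the background was not recounted this way. Of the same 29, 4 had a PHF13 peak (PCDHA10, PCDHB15, PCDHGA11 and PCDHGB7), against 24.5%. PCDHB8 and PCDHB16, the genes with both peaks, had ratios of 0.475 and 0.463. The 11 members with an EZH2 peak had a median of 0.507 and the 42 without had 0.663, with overlapping ranges (0.42 to 0.714 and 0.153 to 0.919).

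**Figure D4:**
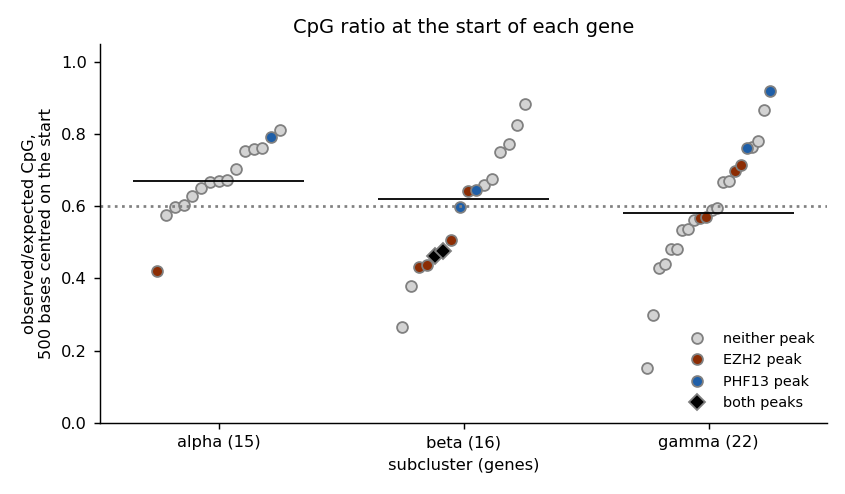
Observed over expected CpG in the 500 bases centred on the canonical start (vertical axis, ratio) of each member, by subcluster; lines are medians, the dotted line is 0.6 and colours give the peaks within 5 kb. The 6 beta genes with an EZH2 peak lie at 0.642 or lower, and PCDHB8 and PCDHB16, with both peaks, at 0.475 and 0.463.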

How the data were processed

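ChIP-seq peak lists of PHF13 and EZH2 from PANC-1 cells were used, 1 library each; the input library entered as the control in peak calling. Per the submitters' processing notes, tools were Trim Galore 0.4.1, Bowtie2 2.4.1, Picard, MACS2 2.2.7.1 and deepTools 3.5.0 on hg19. The methods state no filter on mapping quality. They give narrow peaks for PHF13 and broad peaks for EZH2, but both deposited lists are in narrow-peak form, and the lowest −log10 q is 1.30 in each. The thresholds in the methods differ from this, looser for EZH2 and stricter for PHF13; at the stricter one, a −log10 q of at least 3, 3 of the 6 PHF13 peaks of the clusters and 0 alpha members were left. The deposited files give, per peak, an integer score, a ratio (fold enrichment over local background), −log10 p-value and −log10 q-value at the summit, and the summit offset, as computed by the authors with MACS2.

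From these values whole fragment counts at the summit were solved from the Poisson p and the fold (relative tolerance 0.0001; solved for every peak of both lists). Medians over the lists were 21 fragments for PHF13 and 25 for EZH2. Gene starts were all transcript starts of GENCODE release 44 on GRCh37. No peak passed the end of its chromosome. Copies of 24-mers were counted on both strands of GRCh37, and a peak was single-copy when the median 24-mer in the 100 bases around its summit occurred once. The lists were compared by an overlap of at least 1 bp. Values were given in full for every overlap of the 2 proteins, all PHF13 peaks, the 5 EZH2 peaks of highest −log10 q in each subcluster, and PCDHB8; the other EZH2 peaks were few and were added. The HOX list, protocadherins outside the clusters, regulators, neighbours and pseudogenes were counted as comparison lists. The members and lists were chosen with earlier results of these data known. No test was run, since each group had 1 library. Alternatives were other distances, q minimums, single-copy peaks, summit distances and nearest member only. The scripts were tested on simulated data. Python 3.11.15, pandas 2.3.3, numpy 2.4.6, scipy 1.17.1 and pysam 0.24.0 were used.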

Additional observations from a re-analysis of the deposited data

How the results depend on the processing

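No paired analysis was possible because each antibody had 1 library. Of 67 recomputed values 32 stayed within 1.5 times the reported value (medians within counting error) and 35 moved. Within 1 kb of a start, EZH2 was found at 0 alpha, 3 beta and 1 gamma members, PHF13 at 1 alpha, 1 beta and 1 gamma, and both at 1. Within 10 kb, EZH2 was found at 2 alpha, 10 beta and 8 gamma members, PHF13 at 3 alpha, 6 beta and 4 gamma, and both at 7. At a −log10 q of at least 3, EZH2 kept 0 alpha, 5 beta and 3 gamma members and 7 peaks in all. PHF13 kept 0 alpha, 2 beta and 2 gamma members and 3 peaks. At 5, EZH2 kept 0 alpha, 3 beta and 0 gamma members and 2 peaks, PHF13 kept 0 members in every subcluster and 1 peak, and members with both and overlaps fell to 0. On single-copy peaks, EZH2 kept 0 alpha, 5 beta and 4 gamma members and 6 peaks. PHF13 kept 1 alpha, 0 beta and 2 gamma members and 3 peaks, and members with both and overlaps fell to 0. With each peak given to the nearest member, EZH2 kept 1 alpha, 4 beta and 3 gamma members. PHF13 kept 1 alpha, 3 beta and 1 gamma, and 1 member had both. The q and single-copy settings leave fewer peaks by construction, the distance settings change only which starts count, and no other cause was tested. The median EZH2 fold enrichment could not be given for alpha in any alternative, or for gamma at a −log10 q of at least 5, since no peak was left. The beta subcluster had the highest EZH2 count of members in each of these settings, although on single-copy peaks 3 of its 5 members came through 1 peak. Depth limits all values: 15 to 34 fragments stood behind each peak. A read wholly within sequence that recurs exactly cannot be assigned to 1 place. Every multi-copy peak except the first of PCDHB13 also held some single-copy sequence, and a read that reaches it may be placed. How many reads could be placed was not tested.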

Other observations

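Several peaks lay near the clusters but outside the rule. The strongest was a PHF13 peak at chr5:140098296-140098570, on the vault RNA gene VTRNA1-2, 67151 bp before PCDHA1, with 34 fragments, an enrichment of 4.92-fold at a −log10 q of 11.01; it held TGAGTCA or TGACTCA, like the alpha intron peak of the same fragment count. The only EZH2 peak of this kind, at chr5:140641634-140641783, lay 16671 bp from the nearest start of PCDHB15, between the beta and gamma subclusters, with 16 fragments and a fold enrichment of 3.14. Of the 4 neighbouring genes TAF7, SLC25A2, ZMAT2 and DIAPH1, DIAPH1 (a formin that builds actin filaments) had a PHF13 peak, 3047 bp from its start, and none had an EZH2 peak.

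Genes known to act on the clusters were counted as a list of 15 (cohesin, its loader NIPBL and its release factor WAPL, CTCF, DNA methyltransferases, SMCHD1, SETDB1 and PRC2 subunits). PHF13 peaks were within 5 kb of a start of 8 of them (53.3%), against 21.0% of protein-coding genes: SETDB1, EED and STAG2 with a start inside the peak, SMC1A at 126 bp, RAD21 at 178 bp, STAG1 at 341 bp, DNMT1 at 2542 bp and DNMT3A at 4904 bp. EZH2 peaks were within 5 kb of 4 of them (26.7%), against 23.6%: DNMT3B, EED, DNMT1 and STAG2. The 3 genes with both were EED, a core PRC2 subunit, DNMT1, the maintenance DNA methyltransferase, and STAG2, a cohesin subunit. CTCF had neither peak within this distance. The 8 PHF13 peaks near these 15 genes had a median −log10 q of 2.54, against 3.57 over all PHF13 peaks. Their count was not repeated at a −log10 q of at least 3, and the 15 genes were chosen with earlier results known. Of 6 protocadherin pseudogenes 2 had a PHF13 peak (PCDHA14 and PCDHB19P) and 1 an EZH2 peak (PCDHGB8P).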
